A study of Mus musculus with 8 samples.

Results

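Marginal zone B cells in this study were the B cells of the mouse spleen chosen by their own transcripts in 8 single-cell RNA libraries. A member carried at least 3 UMIs (unique molecular identifiers, each standing for a captured RNA molecule) of the B cell genes Cd79a, Cd79b and Ms4a1 in sum and none of the T cell genes Cd3d, Cd3e and Cd3g. It carried no UMI of Fcer2a, the CD23 gene of follicular B cells, none of the cell cycle genes Mki67 and Top2a, and at least 1 UMI of at least 3 of the 5 genes Cr2, Cd1d1, S1pr3, Dtx1 and Cd9. Of 83704 cells with over 100 genes and at most 10% mitochondrial UMIs, 64602 passed the first B cell conditions and 3223 met the whole rule. Control mice gave 569 and 633 members from total and 662 and 524 from YFP+ libraries. The cKO mice gave 461 and 152 from total and 160 and 62 from YFP+ libraries, with batch 1 before batch 2. This order holds below for every pair of values from the libraries of 1 group. Where a pair gives medians, log2 differences or counts for both sorts, total comes before YFP+. All values of the genes in this rule describe how the cells were selected and carry no test.

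The cKO mice were Eif3e fl/fl Cγ1Cre Rosa26-YFP LSL and the controls were littermates of genotype Cγ1Cre Rosa26-YFP LSL, all 2 months old and on the C57BL/6J background. Cγ1Cre is expressed with the Ig γ1 gene. Both genotypes thus carry a Cre that acts in activated B cells and marks them with YFP, while the Eif3e deletion follows it only in cKO mice. From each genotype and batch, live splenocytes without further selection (total) and sorted YFP+ cells were loaded, each library from a pool of mice. The labels name the spleen as the tissue, but their extraction protocol also mentions lymph nodes, so the part of lymph node B cells in these libraries cannot be told apart. Total libraries were not selected on Cre activity, so their marginal zone B cells may hold intact or deleted Eif3e. With 2 pools per group, p-values measure the spread between pools, which the gene tests take in large part from all genes together. A very small p-value thus does not measure the spread of that gene alone. The comparisons below share libraries with one another.

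Marginal zone B cells line the marginal sinus of the spleen, where blood-borne particles first meet lymphocytes. They depend on Notch2 signalling, sit at the sinus through sphingosine-1-phosphate receptors and integrins, bind complement-coated antigen through CD21 (the product of Cr2), present lipids on CD1d, and give rapid IgM responses without help from T cells. Follicular B cells recirculate through the follicles instead and carry CD23 and IgD.

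The label was checked against 14 marginal zone genes that the rule did not use, and the data bore it out for most of them. CPM below means the UMIs of a gene, summed over the cells of a class in a library, per 1000000 UMIs of that sum. The follicular comparator holds 22367 non-cycling B cells with Fcer2a and at most 1 of the 5 rule genes. Ackr3, an atypical chemokine receptor, had a median over the 8 libraries of 153 CPM in members (range 19.9 to 178) and 2.12 CPM in follicular cells. Fcrl5, an Fc receptor-like surface protein, stood at 354 against 24.5 CPM, and Myof, a membrane repair protein, at 200.3 against 22.6 CPM. The lowest member library lay above the highest follicular library for each of these 3 genes. Zc3h12c, an endoribonuclease, Marcks, Plac8, Asb2, Sema7a, Tm6sf1 and Mzb1 were also higher in members, whereas Tnfrsf13b, the TACI gene, was nearly level (166 against 135 CPM) and Gpr183, an oxysterol receptor, was lower (452 against 658 CPM). Of follicular genes, Ighd stood at 259 CPM in members against 1041 CPM and Ccr7 at 113 against 226 CPM. These class differences are a description, because the rule that separates the classes fixes part of them.

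**Figure D1:**
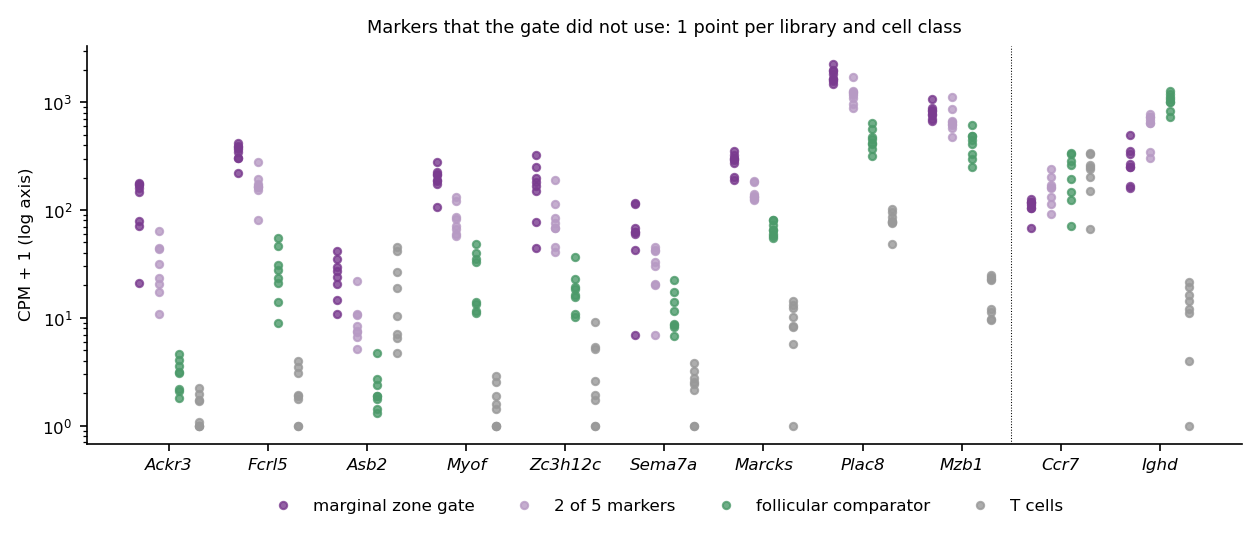
Levels (CPM + 1, log axis) of 9 marginal zone genes and, right of the dotted line, 2 follicular genes outside the rule, with 1 point per library for marginal zone B cells, cells with 2 of the 5 rule genes, follicular comparator cells and T cells. The Ackr3, Fcrl5 and Myof points of marginal zone and follicular cells are fully separated, whereas those of Sema7a and Ccr7 overlap across libraries.

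Over all genes, those with the largest median ratio of members over follicular cells within a library, among genes with at least 500 UMIs, were Ackr3, with a log2 ratio of 5.34 (library range 3.25 to 6.60), Nebl, an actin-binding protein, with 4.74 (library range 3.55 to 5.59), and Ube2e2, a ubiquitin-conjugating enzyme, with 4.67 (library range 2.10 to 4.94). Rgs10, a regulator of G protein signalling, stood at 109 against 5.9 CPM, Cd36, a scavenger receptor for lipids, at 224 against 19.1 CPM, Dnase1l3, a secreted nuclease that degrades DNA on microparticles, at 148 against 14.9 CPM, and Il10, the anti-inflammatory cytokine, at 15.4 against 0.606 CPM. Each of these was higher in members in all 8 libraries. At the other end were Ryr2, a calcium release channel, at 1.04 against 33.7 CPM, Rflnb, at 12.8 against 96.1 CPM, Bach2, a repressor that keeps B cells from plasma cell fate, at 395 against 1279 CPM, Cd55, a complement regulator, at 164 against 563 CPM, and Alcam, an adhesion molecule, at 44 against 198 CPM. All of these were lower in members in all 8 libraries.

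Members were not uniform. Of control members, exactly 3 of the 5 rule genes were detected in 46.9 and 49.9% (total) and 55.3 and 62.6% (YFP+). Of cKO members this held for 59.2 and 63.2% (total) and 72.5 and 82.3% (YFP+), so that the cells just inside the threshold made up a larger portion in cKO than in control libraries of the same sort and batch. Cells just outside it, with 2 rule genes, numbered between 202 and 658 per library and were intermediate, with a median of 26.4 CPM of Ackr3 and 164 CPM of Fcrl5. Cells that met every condition but carried Fcer2a numbered between 70 and 340 per library, which in the second cKO total and cKO YFP+ libraries was more than the members themselves (154 against 152, and 70 against 62). Libraries held 71894780 to 105224903 UMIs in all. Median depth per member lay between 5769 and 9204 UMIs and was lowest in the second control YFP+ library. Cr2 was detected in 90.3 to 98.7% of members per library, Dtx1 in 88.5 to 97.4% and S1pr3 in 27 to 51.8%.

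Markers of other cells were found in members as well. At least 2 of the B1 genes Cd5, Spn, Zbtb32, Bhlhe41 and Ctla4 were found in 4.84 to 11.9% of members per library. The 8 T and NK genes summed to 101 and 80.01 CPM in total libraries of control mice and 94.8 and 62.2 CPM in those of cKO mice. In YFP+ libraries they summed to 20.6 and 27.6 CPM (control) and 29.3 and 39.7 CPM (cKO). The 10 myeloid genes summed to 194 and 181 CPM in cKO total members and to 19.9 to 84.7 CPM in the other 6 libraries. The 8 platelet and erythroid genes summed to 31.7 and 52 CPM in control and 129 and 24.7 CPM in cKO total members, and to 21.2 and 12.6 (control) and 80.7 and 7.94 CPM (cKO) in YFP+ members. In the total genotype comparison given below all 4 of them tested lay above 0 (median log2 1.13), with 0 called by edgeR or DESeq2, 2 at an unadjusted p under 0.05 and 0 without overlap. Of the 8 myeloid genes tested there, 6 lay above 0 (median log2 1.08), with 0 called by either tool and 2 at an unadjusted p under 0.05. Of them 4 were higher and 1 lower without overlap, beside 11.1 and 11.2% of all genes. The 6 plasma cell genes summed to 526 and 371 (control) and 416 and 284 CPM (cKO) in total members, and to 1485 and 937 (control) and 304 and 2534 CPM (cKO) in YFP+ members, where the second cKO library was the highest of all 8. The part of these cells in the comparisons below was not tested beyond the stricter gate. Follicular dendritic and stromal genes stayed at or below 2.36 CPM. Single cells weighed heavily on antibody secretion genes in some libraries. The 2 members with most UMIs held 81.8% of all Ighm UMIs and 99.4% of all Jchain UMIs in the second cKO YFP+ library, and 95.8% of the Ighg1 UMIs in the first cKO total library. Over all 8 libraries this share ran from 11.1% to 99.4% for Jchain and from 1.31% to 81.8% for Ighm. Pairs of libraries shared 51 to 102 cell barcodes, of which at most 1 belonged to members in both.

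Marginal zone B cells formed a smaller fraction of B cells in cKO than in control libraries. With 95% exact binomial intervals, which cover counting error only, they made up 10.3% (9.48 to 11.1%) and 9.1% (8.44 to 9.8%) of gated B cells in control total libraries and 6.97% (6.36 to 7.61%) and 2.46% (2.09 to 2.88%) in cKO total libraries. In YFP+ libraries they made up 7.85% (7.29 to 8.45%) and 4.62% (4.24 to 5.02%) in control and 1.72% (1.47 to 2.01%) and 0.605% (0.464 to 0.775%) in cKO mice. The groups did not overlap in either sort, and the ratio of means (cKO over control) was 0.487 in total libraries (0.679 within batch 1 and 0.27 within batch 2) and 0.186 in YFP+ libraries (0.219 and 0.131). Members were also a smaller share of YFP+ than of total B cells, with a ratio of 0.644 in control and 0.247 in cKO mice, and the sort on YFP itself sets which B cells these libraries hold. With 2 pools against 2, the exact two-sided permutation test gave p = 0.333 for each of these 4 differences, which is the smallest value it can give, so none can pass 0.05.

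The rule genes moved with genotype too, which bears on these fractions. Cr2 over all gated B cells gave 638 and 589.6 CPM (control) against 357 and 161 CPM (cKO) in total libraries. In YFP+ libraries it gave 245 and 153 CPM against 93.1 and 27.9 CPM. It was also lower within follicular comparator cells of cKO mice (177 and 96.2 against 376 and 355 CPM in total libraries). Fcer2a over gated B cells was higher in cKO than in control YFP+ libraries (289.7 and 326 against 71.7 and 97.6 CPM). Requiring 3 of the 4 genes without Cr2 left ratios of 0.378 in total and 0.121 in YFP+ libraries, and dropping the Fcer2a condition left 0.513 and 0.289. As a share of all cells instead of B cells, the YFP+ against total ratio in control mice was 1.02 (exact permutation p = 1). In cKO mice that ratio was 0.372 (exact permutation p = 0.667), at 1.58 and 0.593% of all cells in YFP+ against 4.4 and 1.44% in total libraries, where the groups overlapped. Under the stricter gate, which removes members with transcripts of other lineages or very high UMI counts, the total groups overlapped, at 4.18 and 2.93% in control and 3.17 and 0.955% in cKO libraries (ratio 0.58, exact permutation p = 0.667). The YFP+ groups stayed apart under it, at 3.68 and 2.8% in control and 1.05 and 0.361% in cKO mice (ratio 0.219), whereas YFP+ and total libraries overlapped in both genotypes (ratios 0.909 in control and 0.343 in cKO mice). Whether fewer cells of this kind or lower rule transcripts per cell underlie the smaller share cannot be told apart here.

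**Figure D2:**
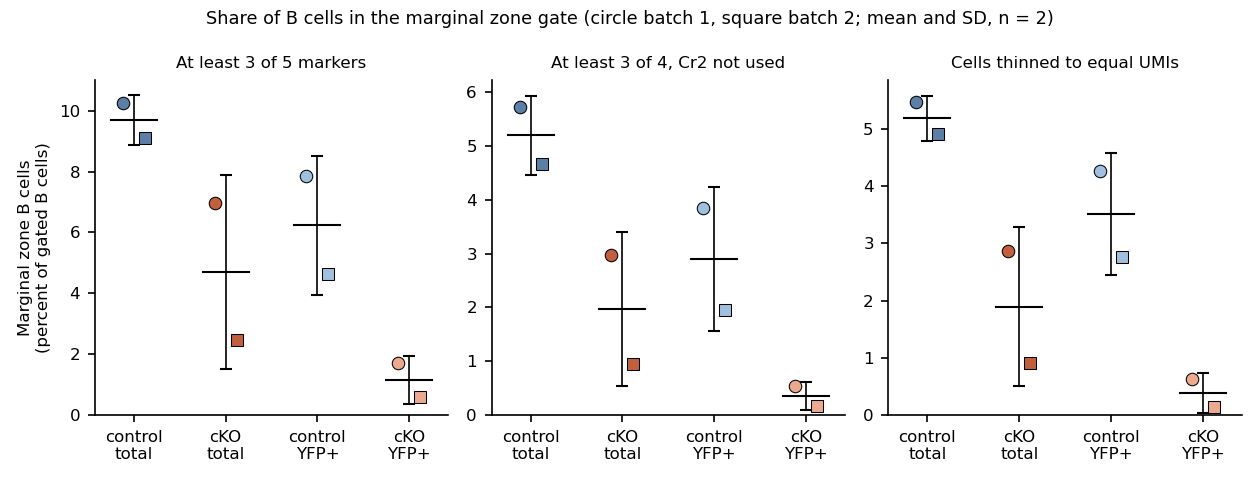
Marginal zone B cells as percent of gated B cells under the rule, with 3 of 4 genes without Cr2, and with cells thinned to equal UMIs, for the 4 groups (circle batch 1, square batch 2, horizontal line the mean, bars the SD, n = 2). In all 3 panels both cKO points lie below both control points of the same sort, which was not so in total libraries under the stricter gate, not drawn here.

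Eif3e, the deleted gene (ENSMUSG00000022336, chromosome 15, 43250058 to 43282719, minus strand in GRCm38), was counted at overlapping levels in both genotypes. Total libraries gave 235 and 294 CPM (control) and 227 and 299 CPM (cKO), and YFP+ libraries 248 and 292 CPM (control) and 268 and 407 CPM (cKO). The log2 difference was −0.0064 ± 0.29 (SE) in total and 0.41 ± 0.35 in YFP+ libraries, and its sign depended on the scaling or the libraries used. These libraries count RNA 3′ ends, so a transcript that lacks the floxed part can still be counted, and this measurement does not check the deletion. Of the 13 eIF3 subunit genes tested, which build the translation initiation complex around Eif3e, 0 were called in either sort by edgeR or by DESeq2 and 0 had an unadjusted p under 0.05, with medians of 0.0068 and 0.14 on the log2 scale.

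In YFP+ cells, where Cre had acted, marginal zone B cells of cKO and control mice differed in 40 of 9439 genes by edgeR's quasi-likelihood test with Benjamini-Hochberg adjustment over all genes (0.424%), of which 22 were higher (0.233%) and 18 lower (0.191%) in cKO. At an unadjusted p under 0.05 there were 374. Lifr, the receptor subunit for leukaemia inhibitory factor (ENSMUSG00000054263, chromosome 15, 7090614 to 7197489, plus strand in GRCm38), stood at 1.37 and 0 CPM in control and 33.7 and 49.6 CPM in cKO members (log2 fold change 4.77 ± 0.46 (SE), adjusted p = 1.51e-21). It was near 0 in both control libraries and the groups did not overlap. The call held in 11 of the 12 alternatives in which Lifr was tested. It was lost with the rule applied after thinning, a fit that also lost the second cKO YFP+ library (13 members, under the minimum of 20). With at least 4 rule genes, or without Cr2, Lifr was not among the genes tested. With 2500 UMIs drawn per cell, 9.38 and 11.3% of cKO members had a Lifr UMI (14.4 and 27.4% without drawing). T cells of these cKO libraries (209 and 18 cells), taken as the measure of free RNA, held 1.88 and 0 CPM. T cells were chosen with at least 3 UMIs of Cd3d, Cd3e and Cd3g and none of Cd79a, Cd79b and Ms4a1. This measure can therefore understate free B cell RNA, and with 18 cells the second value is imprecise.

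Genes of the IL-4 and STAT6 response were among those that rose. Il4i1, an amino acid oxidase that IL-4 induces, went from 34.3 and 38.6 to 94.9 and 203 CPM (log2 fold change 2.08 ± 0.35 (SE), adjusted p = 5.61e-06). Nfil3, a transcription factor downstream of IL-4, went from 11 and 13.8 to 31.9 and 61.6 CPM (log2 fold change 1.86 ± 0.37 (SE), adjusted p = 2.46e-04). Socs1, an inhibitor of cytokine receptor signalling, went from 8.23 and 5.52 to 18.6 and 41.7 CPM (adjusted p = 0.00105). In all 3 the second cKO library was the higher one and the groups did not overlap. For Il4i1, 2 cells held 13.1 and 35.3% of the UMIs in cKO and 22.9 and 12.7% in control libraries. Of the 10 genes of this list tested, these 3 were called and 9 lay above 0, with a median of 0.75 against 0.0033 over all genes tested, of which 50.5% lay above 0. Il4i1 was called in 9 of 14, Nfil3 in 7 of 14 and Socs1 in 7 of 14 alternatives, all 3 lost the call without the second cKO YFP+ library, and DESeq2 called 1 gene of the list. Cish and Il4ra, a feedback inhibitor and the IL-4 receptor chain, were not called (log2 differences 1.46 ± 0.50 and 0.95 ± 0.36).

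St7 rose from 26.9 and 18.1 to 84.2 and 127 CPM (log2 fold change 2.26 ± 0.35 (SE), adjusted p = 3.82e-07). Klhdc2, a substrate receptor of a ubiquitin ligase, rose from 21.8 and 27 to 57.6 and 175 CPM (log2 fold change 2.28 ± 0.36 (SE), adjusted p = 3.82e-07), and Rflnb, a filamin-binding protein, rose from 4.51 and 3.68 to 28.4 and 35.7 CPM (log2 fold change 2.77 ± 0.42 (SE), adjusted p = 1.43e-07). St7 was called in 10 of 14, Klhdc2 in 9 of 14 and Rflnb in 11 of 14 alternatives. Stau2, a double-stranded RNA-binding protein, Serpinb6b, a protease inhibitor, and Slfn5 rose with adjusted p of 1.27e-04, 1.30e-04 and 7.96e-04, and were called in 9 of 14, 7 of 14 and 7 of 14 alternatives. Ryr2 held 28 UMIs over cKO and 1 UMI over control YFP+ members, a ratio of 144 (95% counting interval 23.7 to 5871), and was called (adjusted p = 7.41e-12) in 9 of 10 alternatives as well. The ratio was 266 without the first and 89 without the second cKO library, and 87.6 without the second control library. Without the first control library no control UMI remained, and Ryr2 was at least 18.7-fold higher against a floor of 3 UMIs over the group. In the cKO libraries 2 cells held 41.7 and 50% of its UMIs, and the call was lost when all 8 libraries were fitted in 1 model. Ryr2 was not among the genes tested with at least 4 rule genes, after thinning or without Cr2. Lifr, St7, Stau2 and Nfil3 belong to a list of 8 genes chosen on these same libraries as raised in cKO naive B cells, so their direction here is not independent evidence. All 8 lay above 0, with a median of 1.87.

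Among the genes that fell, Ackr3 (ENSMUSG00000044337, chromosome 1, 90203980 to 90216751, plus strand in GRCm38), whose product takes up the chemokine CXCL12, went from 169.5 and 161 to 78.9 and 19.9 CPM (log2 fold change −1.59 ± 0.36 (SE), adjusted p = 0.00442). Zc3h12c went from 321 and 198 to 148 and 43.7 CPM (log2 fold change −1.33 ± 0.35 (SE), adjusted p = 0.0428). For both genes the second cKO library was the lowest. Ackr3 was called in 8 of 14 and Zc3h12c in 4 of 14 alternatives. These were the 2 of 14 marginal zone genes outside the rule that were called, and 13 of the 14 lay below 0, with a median of −0.50. Values of 8 of the 14 were lower without overlap, beside 13.4% of all genes that were lower without overlap and 13.4% that were higher. Of the genes that mark follicular cells, Ighd rose, as given below, and Fcmr, the IgM receptor, stood at 376 and 344 CPM in control and 429 and 469 CPM in cKO members without overlap (log2 difference 0.40 ± 0.35, not called). Cxcr5, the receptor that draws B cells into follicles, gave 0.11 ± 0.34, and Ccr7, which guides cells toward the T cell zone, −0.24 ± 0.35, neither called. Of the 5 follicular genes tested 4 lay above 0, with a median of 0.40, and 3 were higher without overlap. Their sum in members was 1051 and 889 CPM in control and 1323 and 1352 CPM in cKO YFP+ libraries. Ackr3 was still detected in 20 and 8.06% of cKO members, whose T cells held 0 and 0 CPM. Ryr2, Rflnb, Ighd, Lifr and Il4i1, all called higher in cKO, were lower in members than in follicular cells. Their median log2 ratios within a library were −3.62, −2.57, −2.09, −1.94 and −1.72. Igha had −1.89 but was called lower in cKO. The cKO YFP+ libraries held 3699 and 4729 follicular comparator cells, control ones 1339 and 2121. Whether a larger part of follicular-like cells among cKO members contributed to the genotype differences in either sort was not tested.

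Rab30, a Golgi GTPase, fell from 749.5 and 499 to 214 and 159 CPM (log2 fold change −1.66 ± 0.37 (SE), adjusted p = 0.00282). Cd80, the costimulatory ligand for CD28 and CTLA-4 on T cells (ENSMUSG00000075122, chromosome 16, 38455561 to 38496335, plus strand in GRCm38), fell from 40.2 and 34.9 to 9.75 and 11.9 CPM (log2 fold change −1.72 ± 0.43 (SE), adjusted p = 0.0169). The groups did not overlap for either gene. Rab30 was called in 7 of 14, Cd80 in 5 of 14 alternatives. The cKO YFP+ members held 17 UMIs of Cd80. Its call was lost by DESeq2, under the stricter gate, without the first control library and without either cKO library. In T cells of the YFP+ libraries Cd80 stood at 2.21 and 0 CPM in control and 26.4 and 0 CPM in cKO mice, and the second cKO library held 18 T cells. Of the other costimulatory genes tested, Cd86, Icosl, Icam1 and Cd40, 0 were called. Cxcr3, a chemokine receptor, held 3 UMIs in cKO against 160 in control members, which at equal depth was 10.4 times as much in control (95% counting interval 3.5 to 51). Plcd3, a phospholipase C, held 2 against 208 UMIs (20.3 times, 5.54 to 169). Without the first cKO library Plcd3 was 12.5 times as high in control, and Cxcr3, then with 0 UMIs in cKO members, at least 3.21-fold lower against a floor of 3 UMIs. S100a6, Agbl1, Trabd2b and Trerf1 completed the named genes that fell, with adjusted p from 1.57e-04 to 0.0138. They were called in 5 or 6 of their 12 or 14 alternatives, Cxcr3 in 5 of 14 and Plcd3 in 8 of 14. Cxcr3 belongs to a list of 6 genes chosen on these same libraries as lowered in cKO naive B cells. Its direction here is therefore not independent evidence. Of the 3 genes of that list tested, 0 lay above 0, with a median of −1.47.

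**Figure D3:**
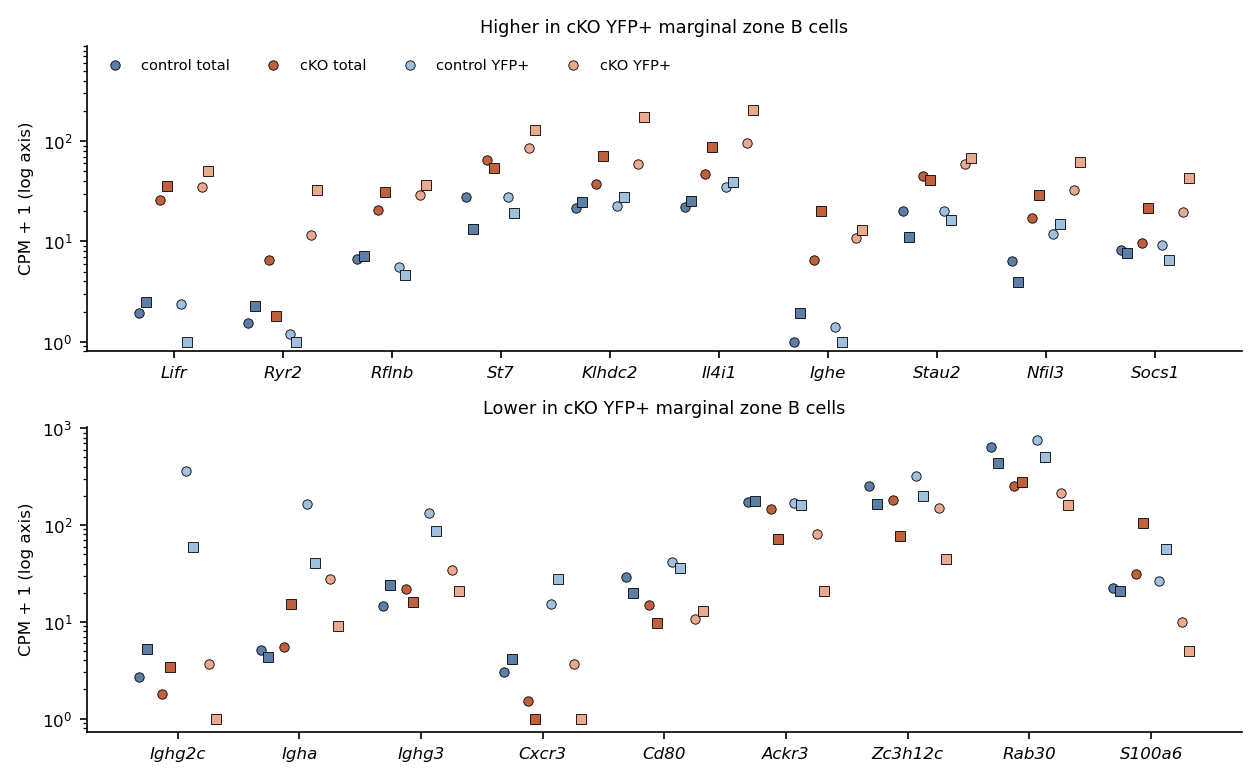
Levels in marginal zone B cells (CPM + 1, log axis) of 10 genes called higher and 9 called lower in cKO YFP+ cells, with 1 point per library (circle batch 1, square batch 2) and the total libraries beside them. Lifr and St7 separate cKO from control in both sorts, and S100a6 is lower in cKO YFP+ but not in cKO total libraries.

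These YFP+ calls rested on few cells, since the second cKO YFP+ library held 62 members. Without that library 13 genes were called, without the first control YFP+ library 24, and 21 of 27 genes given here with a value there lost the call without the second cKO YFP+ library. The replicate block, which pairs libraries of a batch, raised the count to 252 with all 40 kept. At least 4 rule genes, the rule after thinning to 2500 UMIs and the rule without Cr2 left that library 11, 13 and 17 members, under the minimum of 20 cells, so that these fits changed the rule and had 1 cKO library at once. They called 3, 2 and 7 genes, and what the rule and what the missing library contributed cannot be told apart. DESeq2 called 10.

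In total libraries the same comparison called 1 of 10771 genes (0.00928%, higher 0.00928%, lower 0%). That gene was Lifr, at 0.922 and 1.46 CPM in control and 25 and 35.1 CPM in cKO members (log2 fold change 4.13 ± 0.37 (SE), adjusted p = 1.13e-04), with a UMI in 0.176 and 0.159% of control and 6.35 and 6.58% of cKO members after thinning. Neither cKO library overlapped the controls. The call was lost when at least 4 rule genes were required (adjusted p = 0.0891) or Cr2 was left out of the rule (adjusted p = 0.165), over a range of 2.59e-23 to 0.165 in 14 alternatives, and 208 genes had an unadjusted p under 0.05. With the replicate block 121 genes were called, and leaving out single libraries gave 25 to 60.

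Genes next in rank in total libraries were not called: Nfil3 (log2 difference 2.22 ± 0.37, adjusted p = 0.0922), Rflnb (1.91 ± 0.32, 0.0922), Stau2 (1.51 ± 0.29, 0.191) and St7 (1.59 ± 0.31, 0.191). On the lower side the smallest p belonged to Klra4, with 1 UMI in cKO against 51 in control members, Nrgn, a calmodulin-binding protein (−1.84 ± 0.47), Rab30 (643 and 437 CPM in control and 255 and 279 in cKO), Ripk2, a kinase of innate signalling (125 and 123 against 75.1 and 59 CPM), and Atl3 (156 and 158 against 95.6 and 75.7 CPM). Rab30, Ripk2 and Atl3 did not overlap between groups, as was the case for 11.1% of all genes on the higher side and 11.2% on the lower. Ackr3 gave 173 and 178 CPM in control against 146 and 70.2 CPM in cKO libraries and Cd80 28 and 18.7 against 13.9 and 8.77 CPM, neither of them called. Of the 14 marginal zone genes 13 lay below 0 here as well, with a median of −0.17 against −0.0051 over all genes.

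All 12 genes of MHC class II and its peptide loading lay above 0 in both sorts, with medians of 0.35 in total and 0.53 in YFP+ libraries. Of all genes tested 48.9% (total) and 50.5% (YFP+) lay above 0. The same sign was not limited to genotype. In YFP+ against total members 12 of the 12 lay above 0 in control mice (median 0.19) and 11 in cKO mice (median 0.28). Ifi30, a lysosomal thiol reductase that prepares antigens, was the gene called in YFP+ cells, at 199.7 and 259 CPM in control and 332 and 790.3 CPM in cKO libraries (log2 fold change 1.39 ± 0.36 (SE), adjusted p = 0.0297). This call held in 4 of 14 alternatives and was lost without any one of the 4 libraries and by DESeq2. H2-Aa, a class II chain, gave log2 differences of 0.30 ± 0.34 and 0.41 ± 0.43, and H2-DMa, a peptide loading chain, 0.49 ± 0.32 and 0.69 ± 0.35. Higher values without overlap were found for 5 of the 12 genes in each sort, beside 11.1% (total) and 13.4% (YFP+) of all genes. In total libraries an edgeR interaction test between the classes called 5 of the 12 lower and 0 higher. Lower means a smaller cKO over control ratio in members than in follicular cells. These 5 were Ifi30, H2-Oa, H2-DMa, Ciita and H2-DMb2, beside 1.27% of all genes called lower. In YFP+ libraries 1 of the 12, Ifi30, was called lower (interaction −0.40 ± 0.11), beside 1.48% of all genes. That call held in 4 of 12 alternatives. It was lost when terms for genotype and batch replaced the block on library (adjusted p = 0.887, range 0.00628 to 0.887). DESeq2 called 5 of the list in total libraries. With the same replacement the Ifi30 call there was lost (interaction −0.81 ± 0.12, adjusted p = 0.438, range 5.59e-18 to 0.438 over 12 alternatives).

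Of the Notch genes 25 were tested in total and 22 in YFP+ libraries and 0 were called by edgeR without a block or by DESeq2 in either (2 and 2 at an unadjusted p under 0.05), with medians of −0.079 and 0.083. Notch2, the receptor these cells require, gave 179 and 105.5 CPM (control) against 135 and 94.9 CPM (cKO) in total libraries. In YFP+ libraries it gave 165 and 98.4 against 101 and 41.7 CPM, and batch 2 was the lower library in each group. Within each batch and sort the cKO library was the lower of the pair. The log2 difference was −0.28 ± 0.29 in total and −0.77 ± 0.35 in YFP+ libraries, not called. Blocking on batch gave −0.30 in total libraries (adjusted p = 0.423) and −0.81 in YFP+ libraries, where the difference was called in that 1 of 14 alternatives (adjusted p = 0.00438, range 0.00438 to 1). Maml2, a Notch coactivator, gave −0.84 ± 0.37 and the target Hes1 −0.29 ± 0.35 in YFP+ cells, neither called. Of 22 positioning receptor genes tested in each sort 1 was called in YFP+ libraries, Ackr3, and 0 in total libraries by edgeR or DESeq2 (4 at an unadjusted p under 0.05). S1pr1, which draws cells toward the sinus, gave 0.091 ± 0.26 and 0.080 ± 0.34. B cell receptor and coreceptor genes (13 tested), BAFF receptor and NF-κB genes (14 tested) and Toll-like receptor genes (13 and 10 tested) gave 0 calls in both sorts by either tool. At an unadjusted p under 0.05 there were 0 of them in total and 2 in YFP+ libraries. B cell transcription factors also gave 0 calls among 25 and 26 tested (4 and 2 unadjusted), with medians of −0.18 and −0.17. Plasma cell genes (4), transitional genes (4), B1 genes (6) and lipid presentation genes (4 and 3) held 0 calls by either tool, with 2 of them in total and 2 in YFP+ libraries at an unadjusted p under 0.05. Over all genes, DESeq2 called 2 in total and 10 in YFP+ libraries.

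YFP+ and total marginal zone B cells of control mice differed in 23 of 10912 genes (0.211%), 12 higher (0.11%) and 11 lower (0.101%) in YFP+ cells. Groups did not overlap for 10.5% of all genes on the higher and 11.1% on the lower side, and the genes named here were chosen among these. Of 11 immunoglobulin constant genes tested 4 were called, all higher. Ighg1, with which the Cre is expressed, went from 2.58 and 0.732 CPM in total to 23.9 and 61 CPM in YFP+ members (log2 fold change 4.43 ± 0.58 (SE), adjusted p = 0.0419). T cells of the YFP+ libraries held 12.5 and 84.6 CPM of Ighg1, so that members of the second library did not exceed the T cell level. Ighg3 went from 13.5 and 22.9 to 131 and 85.8 CPM (log2 fold change 2.58 ± 0.35 (SE), adjusted p = 0.0419). T cells there held 72.9 and 42.3 CPM. Igha went from 4.06 and 3.3 to 165 and 39.2 CPM (adjusted p = 0.0419), but T cells held 138 and 30.2 CPM. Members thus lay little above the T cell level, and the part of free RNA in these values was not tested. The second control YFP+ library held 42 T cells, so its T cell values are imprecise. Ighg2c went from 1.66 and 4.21 to 360.5 and 58.2 CPM (adjusted p = 0.0419), where 2 cells held 93% of its UMIs in the first YFP+ library, T cells held 24.3 and 42.3 CPM, and the call was lost with the replicate block (adjusted p = 0.499, range 1.22e-37 to 0.499 over 14 alternatives).

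Cxcr3 was among the other genes higher in control YFP+ members and went from 2.03 and 3.11 to 14.3 and 26.7 CPM (log2 fold change 2.84 ± 0.42 (SE), adjusted p = 0.0419). Zbtb32, a repressor of B cell responses, went from 0.922 and 2.01 to 10.8 and 11 CPM (log2 fold change 2.62 ± 0.39 (SE), adjusted p = 0.0419). Rgs1, a brake on chemokine receptor signalling, went from 16.2 and 14.3 to 48 and 58.2 CPM (log2 fold change 1.83 ± 0.27 (SE), adjusted p = 0.0419). Trabd2b, Tent5c, a poly(A) polymerase of antibody-producing cells, and Basp1 were also higher, with adjusted p of 0.0297, 0.0464 and 0.0464. Rgs1 was the 1 of 22 positioning genes called. Markers of activated and antibody-secreting cells moved with these differences. The plasma cell genes summed to 526 and 371 CPM in total and 1485 and 937 CPM in YFP+ members, the B1 genes to 126 and 118 CPM in total against 195 and 170.1 CPM in YFP+ members, and the germinal centre genes to 80.04 and 54 against 131 and 95.3 CPM. Of those tested, 6 of 6 germinal centre, 4 of 5 plasma cell and 7 of 7 B1 genes lay above 0 (median log2 1.45, 0.92 and 0.57, against 1.48e-04 over all genes). The 1 of them called was Zbtb32, from the B1 list, and 4, 3 and 3 had an unadjusted p under 0.05. Under the stricter gate the calls of Cxcr3, Rgs1, Tent5c, Trabd2b and the 4 immunoglobulin genes were lost, and the part of these cells in the differences was not tested further.

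Genes of NK and T cells led those lower in control YFP+ members, and 3 of the 6 T and NK list genes tested were called. Gzma, a granule protease, held 2 UMIs over YFP+ and 320 over total members, which at equal depth was 123 times as much in total members (95% counting interval 33.8 to 1019.9; adjusted p = 0.0134), and 2 cells held 57.8 and 85.3% of the Gzma UMIs of the total libraries. The ratio was 75 without the second YFP+ library and at least 32 without the first. Nkg7, Prkch, Prkcq, Trbc2, Pid1 and Fyb were called as well, and Klrk1, Klrb1c, Klre1 and Klra8 held 0 UMIs over the 2 YFP+ libraries. Against a floor of 3 UMIs over the group, Klre1 was at least 18.2-fold lower, and at least 7.1-fold or 11.1-fold lower without the first or the second YFP+ library. These genes moved with the T and NK list given above, whose part in this comparison was not tested further. With the replicate block 559 genes were called, with 22 of the 23 kept, and 1 when members with any UMI of T, NK, myeloid, platelet, erythroid, plasma cell or germinal centre genes or with UMIs above the 95th percentile of gated B cells were left out. That stricter gate leaves 8 of the 21 genes named here with a value and calls none of them.

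In cKO mice the YFP+ against total comparison called 2 of 8366 genes (0.0239%), 0 higher (0%) and 2 lower (0.0239%), and non-overlapping genes made up 12.7% on the higher and 13.9% on the lower side. Both genes are expressed by myeloid cells. Fcer1g, a signalling chain of Fc receptors, held 3 UMIs in YFP+ against 176 in total members (18.9 times as much at equal depth in total, 95% counting interval 6.37 to 92.6; adjusted p = 0.00225). Lyz2, lysozyme, stood at 49.4 and 119.6 CPM in total and 3.55 and 0 CPM in YFP+ members (adjusted p = 0.0276), and 2 cells held 84 and 96.7% of its UMIs in the total libraries. Ms4a6c (17.6 and 18.3 CPM in total, 46.1 and 53.6 in YFP+), Havcr1 (2.36 and 3.99, 15.1 and 17.9) and Nt5e (6.04 and 5.58, 24.8 and 15.9), which encode a membrane protein, TIM-1 and CD73, had the smallest p on the higher side and were not called. At an unadjusted p under 0.05 there were 169 genes, DESeq2 called 1 (Lyz2, not Fcer1g), and the replicate block gave 90. Both calls were lost in the model of all 8 libraries. They were also lost with at least 4 rule genes and without Cr2, settings that left 1 cKO YFP+ library.

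Among immunoglobulin genes the cKO and control YFP+ members differed in both directions. Ighg3 fell from 131 and 85.8 to 33.7 and 19.9 CPM (log2 fold change −1.86 ± 0.38 (SE), adjusted p = 5.97e-04), and T cells of the same libraries held 72.9 and 42.3 CPM in control and 1.88 and 0 CPM in cKO mice. The Ighg3 call held in 7 of 14 alternatives and was lost without either cKO library, and without the condition on Fcer2a the sign turned (log2 difference 3.80, adjusted p = 0.999, range 1.18e-12 to 1). Ighg2c held 3 UMIs in cKO against 2029 in control members, which at equal depth was 132 times as much in control (95% counting interval 45.1 to 640.1; adjusted p = 2.21e-06). Of the control UMIs 1839 lay in the first library, where 2 cells held 93% of them, and the call held in 8 of 14 alternatives. T cells of the control libraries held 24.3 and 42.3 CPM of Ighg2c, and the part of free RNA in the member values was not tested. Without that library the ratio was 31.7, and without the first cKO library, which held all 3 cKO UMIs, Ighg2c was at least 40.7-fold lower in cKO members against a floor of 3 UMIs. Igha stood at 26.6 and 7.94 CPM in cKO members with 25.4 and 22.1 CPM in T cells, and its call held in 6 of 14 alternatives. Ighd, the mark of naive follicular cells, rose from 166 and 159.6 to 349 and 500.4 CPM (log2 fold change 1.47 ± 0.35 (SE), adjusted p = 0.0101), against 20.7 and 11 CPM in T cells. The Ighd call held in 5 of 14 alternatives and was lost without any one of the 4 libraries. Ighe held 17 UMIs in cKO against 2 in control members (ratio 43.6, 95% counting interval 10.3 to 389; adjusted p = 2.15e-05), at 9.75 and 11.9 CPM with 8.48 and 0 CPM in T cells, and in total libraries at 5.52 and 19.1 CPM in members and 4.69 and 22.2 CPM in T cells. The Ighe call held in 3 of 8 alternatives. Its ratio was 26.6 without the second control library and at least 11.3 without the first, which held both control UMIs. Member values of Ighe lay near the T cell level except in the second cKO YFP+ library (11.9 against 0 CPM). The part of free RNA in them was not tested. The second cKO YFP+ library held 18 T cells, so its background values are imprecise, and reads of the closely similar Ighg2b and Ighg2c could be divided between them in counting.

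**Figure D4:**
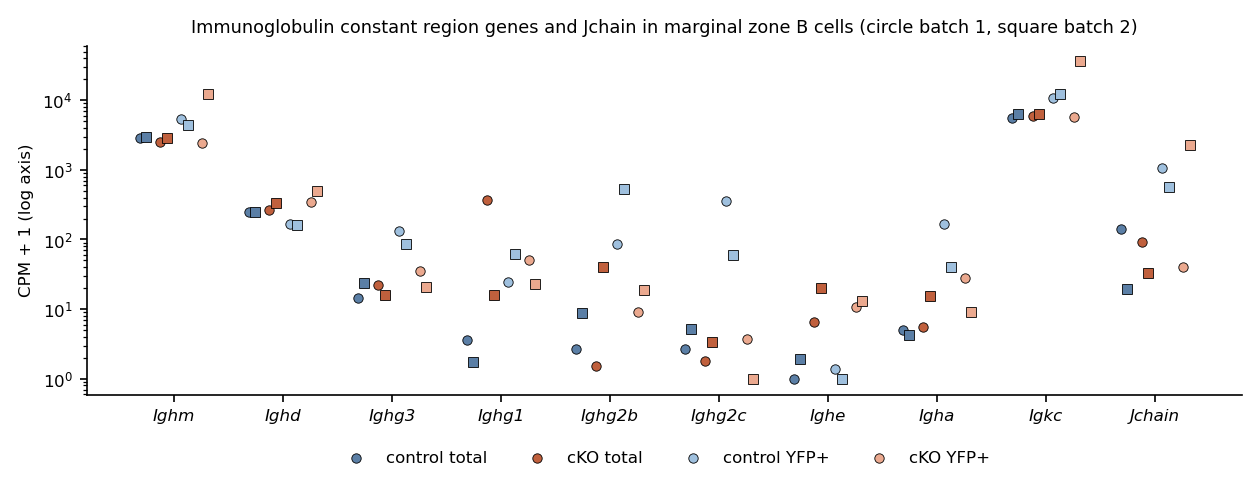
Levels (CPM + 1, log axis) of immunoglobulin constant region genes and Jchain in marginal zone B cells of each library (circle batch 1, square batch 2). Ighg3, Ighg2c and Igha are highest in the 2 control YFP+ libraries, Ighe is higher in the 4 cKO libraries, and Ighm, Igkc and Jchain peak in the second cKO YFP+ library, where 2 cells hold most Ighm UMIs.

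The genotype difference in members was then set against that in follicular comparator cells of the same libraries, as an interaction with the library as a block. It differed between the classes for 299 of 12125 genes in total libraries (2.47%), with 145 shifted toward higher values in members (1.2%) and 154 toward lower (1.27%), and for 349 of 11674 genes in YFP+ libraries (2.99%), 176 higher (1.51%) and 173 lower (1.48%). In this test the replicate block puts terms for genotype and batch in place of the library block. It thus pairs the 2 classes of a library less closely. With it 106 and 50 genes were called, and DESeq2 called 163 and 87.

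For several genes with high cKO values in follicular cells, the difference was smaller in marginal zone B cells. Kcnk13, a potassium channel, went from 2.69 and 2.94 to 61.6 and 99.7 CPM in follicular and from 17.4 and 17.2 to 38.1 and 25.8 CPM in marginal zone B cells of YFP+ libraries (interaction −3.68 ± 0.30 on the log2 scale, edgeR adjusted p = 3.48e-31). St7 went from 18.2 and 10.4 to 313 and 299 CPM in follicular and from 26.9 and 12.3 to 64.4 and 53.4 CPM in marginal zone cells of total libraries (−2.84 ± 0.16). Il4i1 (−1.12 ± 0.14 in total), Nfil3 (−3.51 ± 0.35), Klhdc2 (−2.32 ± 0.15), Samsn1, an adaptor that restrains B cell activation (−1.63 ± 0.10), Pkib, a protein kinase A inhibitor (−1.54 ± 0.11) and Dock10 (−1.48 ± 0.11) were shifted in the same direction and called. The calls of St7 and Klhdc2 were lost with the replicate block in both sorts, and those of Pkib and Il4i1 in YFP+ libraries. The interaction of Lifr was −0.32 ± 1.51 in total and 0.74 ± 0.42 in YFP+ libraries and was not called, while its level in follicular cells of cKO total libraries was 204 and 145 CPM against 25 and 35.1 in members.

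Marginal zone genes were among those whose difference depended on the class. Myof went from 10.2 and 10.6 to 32.1 and 34.4 CPM in follicular cells of YFP+ libraries and stood at 215 and 191 CPM in control and 186 and 105.2 CPM in cKO marginal zone cells (interaction −2.09 ± 0.18). Zc3h12c (−1.91 ± 0.18) and Dnase1l3 (−1.82 ± 0.20) were shifted likewise, with Dnase1l3 at 161 and 160.2 CPM in control and 71.8 and 99.3 CPM in cKO marginal zone cells. Fcrl5 went the other way, from 54.1 and 45.8 to 22.3 and 8.02 CPM in follicular cells and from 392 and 303 to 344 and 218 CPM in marginal zone cells (1.39 ± 0.14). Ly6a, the Sca-1 antigen (1.59 ± 0.13), Cd24a (1.23 ± 0.13), Itga4, an integrin chain that holds cells at the marginal sinus (1.16 ± 0.13), Plaur, the urokinase receptor (0.99 ± 0.12), and Maml2 (1.03 ± 0.13) were likewise lower by less in marginal zone than in follicular cells of cKO mice. With the replicate block the YFP+ calls of Fcrl5, Ly6a, Cd24a and Maml2 were lost (adjusted p = 0.609, 0.178, 0.782 and 0.565, the highest over the 12 alternatives of each), and those of Itga4 and Plaur were kept. In total libraries Fcrl5 (0.87 ± 0.12) and Ly6a (0.78 ± 0.11) kept the call with the block. Ccr7, which guides cells to T cell zones, gave 119 and 103 CPM (control) against 115 and 126 CPM (cKO) in marginal zone cells of total libraries. In follicular cells it gave 336 and 329.7 against 193 and 146 CPM (interaction 0.97 ± 0.12).

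**Figure D5:**
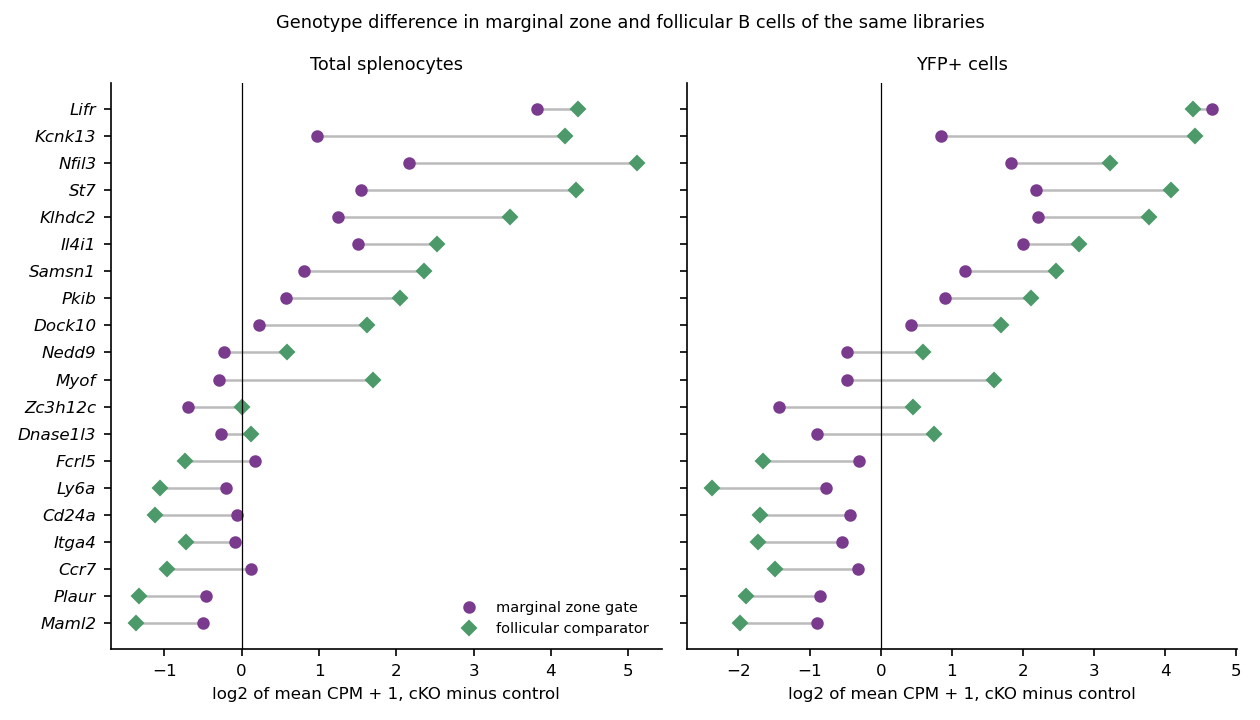
Difference between cKO and control (log2 of the mean CPM + 1) in marginal zone B cells (circles) and follicular comparator cells (diamonds) of total and YFP+ libraries, joined by a line for each of 20 genes. The circles of Kcnk13 and St7 lie far left of their diamonds in both panels, those of Fcrl5 and Ly6a lie to the right, and those of Lifr lie close by.

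Lyz2 and Hp, which encode lysozyme and haptoglobin of myeloid cells, gave large positive interactions in total libraries (5.04 ± 0.21 and 5.88 ± 0.83). Lyz2 stood at 49.4 and 119.6 CPM in cKO total members and the myeloid list moved with it, as given above. The call was lost with at least 4 rule genes (adjusted p = 0.228) and without the Fcer2a condition (0.278). With the rule applied after thinning the Lyz2 interaction turned to −0.41 and was not called (adjusted p = 0.869, range 1.6e-111 to 0.869 over 11 alternatives). The part of myeloid RNA in this result was not tested.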

How the data were processed

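Cells of 8 libraries, with spleen given as the tissue although the extraction protocol also mentions lymph nodes, were captured as droplets and sequenced as 3′ UMI counts. The deposited UMI counts per gene and cell barcode were used as the authors gave them, with no normalization. The submitters' processing notes name GRCm38 and mm10, and no source used here names the aligner. Gene positions come from GENCODE mouse release 21. Each library's group and batch number came from its labels.

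Cells with over 100 genes and at most 10% mitochondrial UMIs were kept. No doublet caller was run, and a stricter gate stood in for one. The members and the gene lists were chosen with earlier results of these data known. Counts of members were summed per library (at least 20 cells, 503620 to 5461715 UMIs per sum), the 14 genes of the gates were removed, and the sums were tested with the quasi-likelihood test of edgeR 4.0.16 in R 4.3.3 (TMM, filterByExpr, robust fit, prior count 2) on the 4 libraries of a comparison, with Benjamini-Hochberg adjustment at 0.05. The fold change is on the log2 scale, and ± is its SE. The difference between classes was tested as an interaction with the library as a block. Scripts were tested on simulated data. Replicates differed by more than sampling noise (chi-square per degree of freedom 8.95 to 32.0). DESeq2 1.42.0, Python 3.11.15, numpy 2.4.6, scipy 1.17.1, pandas 2.3.3 and matplotlib 3.10.9 were also used.

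The labels give batch numbers, so that libraries of 1 batch pair across groups, and their deviations from the group means correlated at 0.252 to 0.616. The fit with this number as a replicate block is given as an alternative, beside other gates, scalings and filters and leaving out each library. In the interaction test this block, with genotype, replaces the block on library. Named genes were the 12 higher and 12 lower genes with the smallest adjusted p under 0.05 whose groups did not overlap, without gate genes, immunoglobulin V segments and unnamed gene models. Where fewer than 5 passed, the 5 with the smallest p were given as not called, and genes of the lists could also be named. Some genes that meet this rule or belong to a list are not reported here.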

Additional observations from a re-analysis of the deposited data

Results flagged for a closer look

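The genotype difference differed between marginal zone B cells and follicular comparator cells by the edgeR interaction test without the replicate block for each gene given here, and a positive value (log2) means a higher cKO over control ratio in marginal zone B cells. In total libraries the positive values were Lyz2 5.04, Il6st 1.02, Tmcc3 0.81, Ppfibp2 1.41, Junb 1.09, Ccr7 0.97, Ly6a 0.78, Pgap1 0.89, Plaur 0.75, Irs2 0.93, Hp 5.88, Fcrl5 0.87. The negative values in total libraries were St7 −2.84, Samsn1 −1.63, Klhdc2 −2.32, Pkib −1.54, Dock10 −1.48, Kcnk13 −3.39, Nfil3 −3.51, Plbd1 −1.36, Prag1 −1.35, Lpxn −1.09, Cltc −0.91, Nedd9 −0.91. In YFP+ libraries the positive values were St6galnac3 1.91, Ly6a 1.59, Crip1 1.36, Fcrl5 1.39, Cd24a 1.23, Itga4 1.16, Plaur 0.99, Ighd 0.94, Maml2 1.03, Nt5e 2.90, Ccr6 1.03, Pgap1 1.21. The negative values in YFP+ libraries were Dock10 −1.31, Kcnk13 −3.68, Myof −2.09, Nedd9 −1.14, Samsn1 −1.33, Zc3h12c −1.91, St7 −2.02, Pkib −1.21, Tmem123 −1.18, AU020206 −1.20, Klhdc2 −1.66, Dnase1l3 −1.82. Samsn1, Pkib, Dock10, Kcnk13, St7, Klhdc2 and Nedd9 were negative, and Ly6a, Plaur, Pgap1 and Fcrl5 positive, in both sorts. With the replicate block, which here puts genotype and batch in place of the library block, the calls of St7 and Klhdc2 were lost in total libraries. In YFP+ libraries those of Ly6a, Crip1, Fcrl5, Cd24a, Ighd, Maml2, St7, Pkib, Tmem123 and Klhdc2 were lost. Groups of 2 libraries were too small for a search for single libraries that stand apart.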

How the results depend on the processing

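Limits: the groups hold 2 pools each, the second cKO YFP+ library holds 62 members, and counts of calls moved with nearly every choice. For the gene comparisons the alternative without Cr2 was chosen after seeing the data. With at least 4 rule genes, thinning or no Cr2, the second cKO YFP+ library fell under 20 members and left the fit, so that YFP+ values of cKO mice under these settings rest on 1 cKO YFP+ library, assumed to vary like the other groups. Of the summary values 72 were counted as the same, 55 as moved and 1 as reversed. A share ratio counted as the same if its direction held, whatever its size, and a count of calls if it lay within 1.5 times. The cKO over control share ratio in YFP+ libraries was 0.109 after thinning and 0.336 with at least 2 rule genes. Of the values of single genes 1503 kept their side, 104 became called, 305 lost the call and 22 reversed. Causes were not tested.

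With the replicate block, which uses the pairing by batch, the counts of called genes were 121 (cKO against control, total), 252 (YFP+), 559 (YFP+ against total, control) and 90 (the same in cKO). In the interactions this block, with genotype, replaces the library block, and the counts were 106 and 50 (total and YFP+). Leaving out 1 library gave 25 to 60, 13 to 35, 61 to 70, 6 to 33, 197 to 658 and 113 to 279 in this order. DESeq2 gave 2, 10, 1 (YFP+ against total, cKO), 163 and 87. One model of all 8 libraries gave 2 (YFP+), 7 and 0. No filter on low counts gave 44 (total), 121 and 15 (YFP+ against total, control and cKO). At least 4 rule genes gave 6, 3, 8, 1 and, for the YFP+ interaction, 130. No Fcer2a condition gave 7, 110, 36 and 16. The stricter gate gave 3, 23, 1 and 0. Thinning gave 2 (YFP+), 4 (YFP+ against total, control) and 210 (YFP+ interaction). Leaving Cr2 out gave 7, 7, 5 (YFP+ against total, cKO) and 205 (YFP+ interaction).

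As a share of all cells the YFP+ against total ratio in control mice was 1.02. Reversed log2 values under thinning were S100a6 0.054 (YFP+), Ms4a6c −0.13, Lyz2 −0.41 (interaction, total), Eif3e −0.13 (YFP+) and Lifr −0.60 (interaction, YFP+). With at least 4 rule genes they were Agbl1 0.79, Ccdc28b −0.85, Eif3e 0.00836 (total) and −0.20 (YFP+), and Lifr −2.41. Without Cr2 they were Eif3e 0.00787 and −0.24 and Lifr −2.12, without the Fcer2a condition Ighg3 3.80 and Lifr 1.16 (interaction, total), and with RLE size factors Eif3e 0.00199. Leaving out 1 library gave −0.25 to 0.22 for Eif3e in total libraries and −0.056 to 0.77 in YFP+ libraries, −0.58 to 0.091 for Notch2 in total libraries, and −1.02 to 0.39 for the Lifr interaction in total libraries.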
